A study of Homo sapiens with 12 samples.

Results

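The transcripts of 10 genes of the NF-kB pathway were measured in 2 human colorectal carcinoma cell lines: the subunit genes NFKB1, NFKB2, RELA and RELB, the inhibitor genes NFKBIA and TNFAIP3, and the target genes BIRC3, ICAM1, CXCL1 and CXCL8. They were chosen by symbol and matched to the table by Ensembl identifier, and all 10 were found among the 63036 identifiers listed. All 10 also passed the filter on low values, which kept 15584 genes for testing. The study profiled poly(A) RNA of HCT116 and HCT15 cells, each as control cells (con) and as cells overexpressing RNF26 (ov_RNF26), with 3 libraries in each of the 4 groups and 12 in all. RNF26 is a membrane-bound ubiquitin ligase of the endoplasmic reticulum, and the series title connects it with growth, spread and Wnt signalling of colorectal cancer cells. The labels do not state how RNF26 was overexpressed, what the control cells carry, or whether cells were cloned or pooled. Nothing in the labels says that the 3 libraries of a group came from separate cultures, so each p-value reflects the spread among libraries alone, and that spread may be technical.

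NF-kB is a family of dimeric transcription factors that inhibitor proteins of the IkB family hold in the cytoplasm. When a receptor for tumour necrosis factor, interleukin-1 or a microbial product is engaged, a kinase complex marks the inhibitor for ubiquitination and degradation, and the dimer enters the nucleus. Its targets include chemokines that attract neutrophils, adhesion molecules, survival genes and its own inhibitors, so that the response restrains itself, and in the colon epithelium the pathway is best known for its part in inflammation. The libraries report transcript levels, and no protein level, nuclear location or DNA binding of any subunit was measured.

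Because several of these genes are textbook targets of the factor that others of them encode, their start regions were searched for the sequences that NF-kB dimers are known to bind. RefSeq windows of GRCh38.p14, from 250 bases before to 50 after each annotated start, matched 9 of the 10 genes. The motif GGAATTTCC was searched on both strands. It was in 5 of the 13 windows of these genes, from 5 of the 9 genes, against 0.461% of all 35116 windows. The degenerate kB consensus overlaps GGAATTTCC wherever a further G precedes it or a further C follows it. It was in 7 of the 13 windows, from 6 of the 9 genes, against 5.91% of all windows. A match describes the letters of a window and is no evidence of binding. The stretches around matches are shown for the 6 genes where those upstream of the start fit a length limit. The levels of the genes played no part in that choice. They read 5′ to 3′ along the gene, with the matched letters in capitals.
NFKB1, chr4:102501300-102501329, plus strand: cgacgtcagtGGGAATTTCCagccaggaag
NFKBIA, chr14:35404776-35404875, minus strand: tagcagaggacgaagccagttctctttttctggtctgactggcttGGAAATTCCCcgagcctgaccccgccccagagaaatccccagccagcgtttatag
TNFAIP3, chr6:137867188-137867217, plus strand: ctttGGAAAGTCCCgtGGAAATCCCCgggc
ICAM1, chr19:10270923-10270952, plus strand: tgctttagcttGGAAATTCCggagctgaag
CXCL1, chr4:73869269-73869369, plus strand: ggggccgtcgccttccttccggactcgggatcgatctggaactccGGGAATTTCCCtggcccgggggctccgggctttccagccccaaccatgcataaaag
CXCL8, chr4:73740433-73740505, plus strand: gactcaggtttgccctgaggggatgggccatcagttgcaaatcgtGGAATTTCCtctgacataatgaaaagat
In NFKBIA and ICAM1 the capitals hold GGAATTTCC on the opposite strand, in TNFAIP3 they mark 2 matches of the kB consensus alone, also on the opposite strand, and in CXCL1 both strands match the kB consensus. The motif began 91 bases upstream of the RefSeq start of CXCL8 and 78 bases upstream of that of CXCL1. The stretches of NFKB1, TNFAIP3 and ICAM1 lie upstream of a RefSeq start but overlap exons of the GENCODE annotation. NFKB2 and BIRC3 also held the kB consensus, and its closest match to the start of BIRC3 began 135 bases upstream.

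Levels are given in TPM, transcripts per 1000000 as deposited, which are scaled by transcript length and hold no read number, so the depth of the libraries is unknown. RNF26 rose from 16.8 ± 1.44 to 295.8 ± 39.4 TPM (SD, n = 3) in HCT116, a ratio of 17.6, and from 27.0 ± 0.762 to 54.2 ± 0.562 TPM in HCT15, a ratio of 2.01. A two-sided exact permutation test of 3 against 3 libraries gave p = 0.1 in each line, the smallest value it can give. The epithelial genes EPCAM, KRT8 and KRT18 were abundant in every library, and between 6 and 7 of 9 colon epithelial markers reached 1 TPM in a group. Of 10 immune markers 1 or 2 did, with PTPRC and CD3E at or near 0. Their summed level was 8.89 to 10.5 TPM in HCT116 controls, 7.27 to 8.51 in HCT116 with RNF26, 14.2 to 22.4 in HCT15 controls and 11.4 to 13.2 in HCT15 with RNF26. CD14 was higher in HCT15 than in HCT116 controls (6.95 ± 0.344 against 0.0167 ± 0.0289 TPM) and fell to 4.74 ± 0.586 TPM with RNF26 in HCT15 (-0.47, adjusted p = 0.00436), a call that ended with median-ratio scaling (0.0711), quantile normalization (0.144), a pseudocount of 0.1 and a correction for GC content and length (0.460). In each group at most 1 of 6 fibroblast markers did and none of 5 endothelial markers did. The epithelial markers were not constant, since VIL1 fell by 1.59 and CDX2 by 1.37 on the log2 scale in HCT15 cells with RNF26 (adjusted p = 6.40e-05 and 0.000479). One HCT15 control library, replicate 3, stood apart with 25.9% of its TPM in mitochondrial transcripts, against 16.4% to 22.5% in the other 11. Ribosomal protein genes held 26.3% to 27.5% of the TPM in HCT15 cells with RNF26 and 17.5% to 24.3% in their controls. The part of these markers and shares in the results was not tested beyond the alternative scalings given beside them.

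All 10 genes were higher in HCT15 than in HCT116 control cells. By limma on log2(TPM + 1), with p-values adjusted over the 15584 genes tested, 10 of 10 were called higher at an adjusted p under 0.05. Of all genes tested 69.5% were called in this comparison, 43.6% higher and 26.0% lower. The median difference of the 10 genes was 2.79 on the log2 scale, against 0.22 over all genes tested. The ratio of the means ran from 1.58 for RELA and 1.92 for NFKB2 to 53.3 for CXCL1 and 61.4 for CXCL8. The order of the levels also differed between the lines. In HCT116 controls the highest were NFKB2 at 28.4 ± 3.35 TPM, RELA at 17.4 ± 3.08, NFKBIA at 14.7 ± 0.685 and NFKB1 at 10.5 ± 0.326, while the 6 other genes, RELB among them, lay below 3.4 TPM in each library. The ranges of RELA and NFKBIA overlapped there. In HCT15 controls NFKBIA led at 171.5 ± 15.6 TPM, followed by ICAM1 at 63.8 ± 0.524 and NFKB2 at 54.4 ± 4.45, with no overlap among these 3. BIRC3, CXCL8, CXCL1 and RELA followed with overlapping ranges, and NFKB1 overlapped the lower end of CXCL1 and RELA. RELB at 15.2 ± 2.10 TPM and TNFAIP3 at 4.26 ± 0.540 were lowest.

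**Figure D1:**
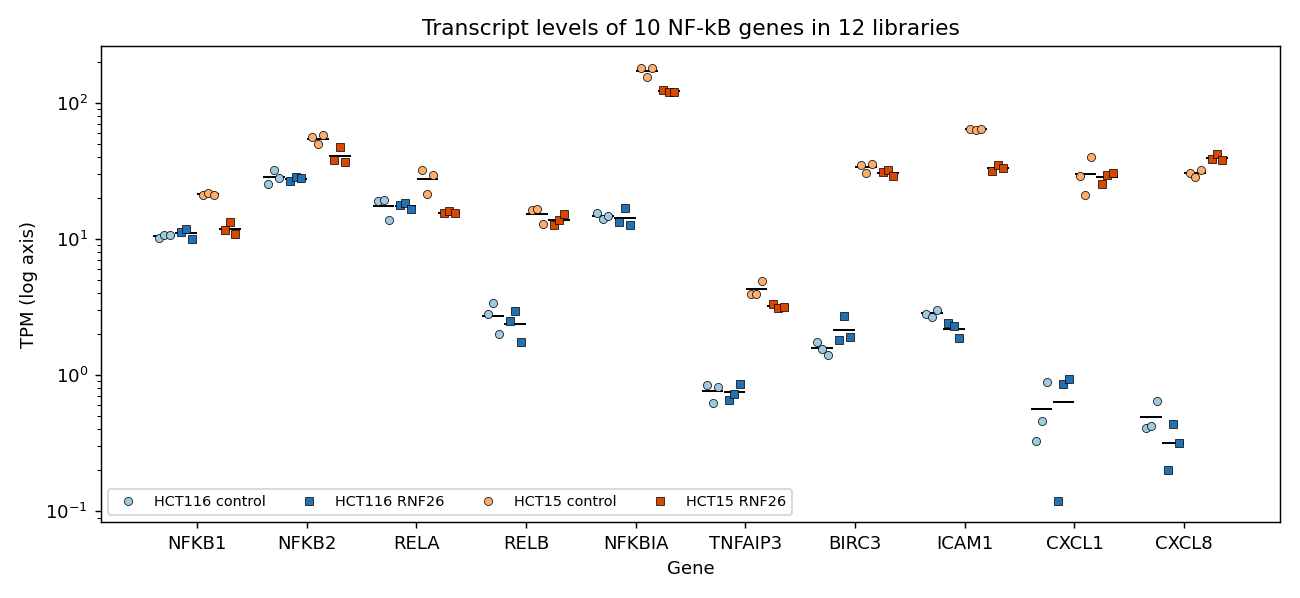
TPM of the 10 genes on a log axis, with 1 point per library and a bar at each group mean (n = 3). The HCT15 control points lie furthest above the HCT116 control points at CXCL1 and CXCL8, and in HCT15 the ICAM1 and NFKB1 points with RNF26 lie below their controls.

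The RNF26 comparison asked whether these transcripts differ with RNF26 within a line. In HCT15 7 of 10 were called, 6 lower and 1 higher: NFKB1, NFKB2, RELA, NFKBIA, TNFAIP3 and ICAM1 fell and CXCL8 rose. Of all genes tested 36.6% were called in HCT15, 31.2% lower and 5.39% higher, and the median difference was -0.37 over the 10 genes against -0.17 over all genes. In HCT116 none of the 10 was called by limma, and 2 of them, ICAM1 and BIRC3, had an unadjusted p under 0.05. Of the 15584 genes tested in HCT116, 657 had an unadjusted p under 0.05. There, 0.00642% of all genes tested were called, a single gene, RNF26 itself. The median of all genes in HCT15 moved to 0.00 with median-ratio scaling and -0.0022 with quantile normalization, so a fall of a gene is relative to how libraries are scaled. Higher and lower calls over all genes were 840 and 4857 as deposited and 2242 and 2600 with median-ratio scaling.

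The HCT15 calls were not equally stable. NFKB1 and ICAM1 were called lower under every alternative scaling, filter, pseudocount and left-out library. RELA and NFKBIA were called lower under each of these too except a correction for the GC content and length of transcripts, under which they gave -0.40 (adjusted p = 0.0573) and -0.21 (0.102). That correction left 2 of the 10 called, and under it CXCL8 gave 0.25 (0.0746), NFKB2 -0.0037 (0.983) and TNFAIP3 -0.14 (0.396). It also recentred the libraries, since the median of all genes it covered in HCT15 moved to -0.012, against -0.17 as deposited. The median transcript GC content was 59.0% for ICAM1, 61.8% for RELA, 62.1% for NFKB2 and 55.3% for NFKBIA, and 37.6% for CXCL8 and 38.8% for BIRC3. RELB, which was not called, had the highest at 65.2%. The median over tested genes was 49.9%, and NFKB1 at 48.9%, TNFAIP3 at 50.0% and CXCL1 at 50.9% were close to it. Under the correction RELB went from -0.12 to 0.30, NFKB2 from -0.42 to -0.0037 and RELA from -0.76 to -0.40. CXCL8 went from 0.37 to 0.25 and BIRC3 from -0.13 to -0.24. The part of GC content in the calls was not tested beyond this correction. Without HCT15 control replicate 3, the library that stood apart, 6 of the 10 were called, with TNFAIP3 no longer among them.

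**Figure D2:**
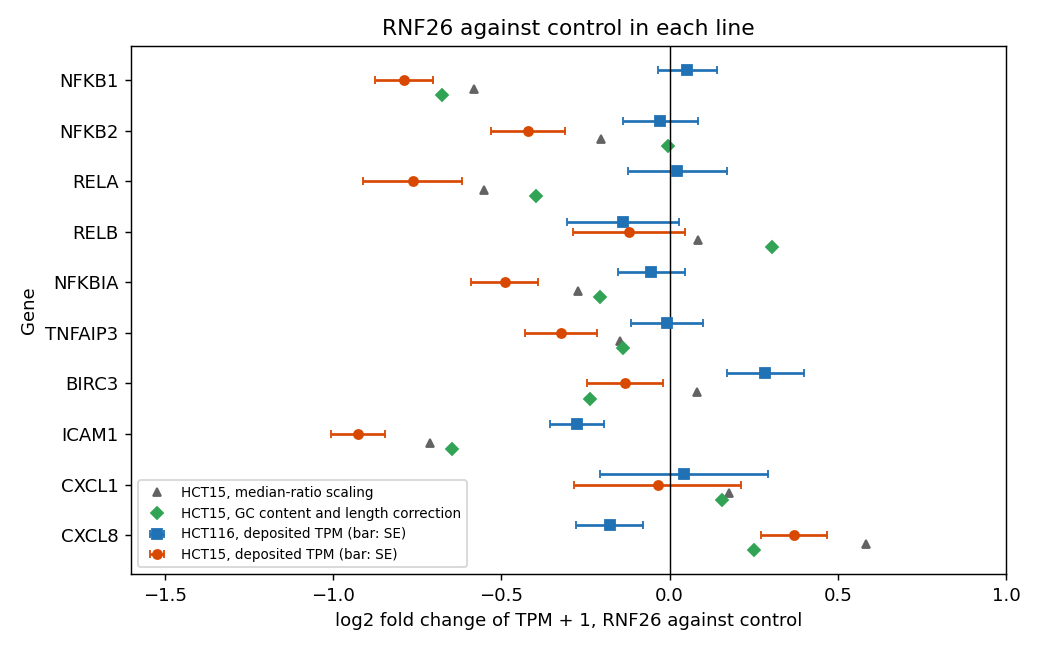
Log2 fold change of TPM + 1 for RNF26 against control, with its standard error as a bar, in HCT116 (squares) and HCT15 (circles), and the HCT15 value under median-ratio scaling (triangles) and under a correction for GC content and length (diamonds). NFKB1 and ICAM1 in HCT15 stay left of 0 under each, NFKB2 moves to -0.0037 under the correction, and CXCL8 stays right of 0.

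Among the subunits, NFKB1 gave the clearest fall. NFKB1 (ENSG00000109320, chr4:102501329-102617302, plus strand) encodes p105, the precursor of the DNA-binding subunit p50. HCT15 control libraries held 20.8, 21.8 and 21.0 TPM and HCT15 libraries with RNF26 11.5, 13.3 and 10.8 TPM. HCT116 libraries held 10.1, 10.7 and 10.7 TPM as controls and 11.2, 11.8 and 9.90 TPM with RNF26. All 3 HCT15 libraries with RNF26 lay below all 3 controls, and the groups overlapped in HCT116. The change in HCT15 was -0.79 on the log2 scale (SE 0.0873, adjusted p = 0.000102) and that in HCT116 0.053 (adjusted p = 1.0). With RNF26, the HCT15 level came to 11.9 ± 1.31 TPM, against 10.5 ± 0.326 in HCT116 controls.

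RELA (ENSG00000173039, chr11:65653596-65663094, minus strand) encodes p65, the subunit with a transactivation domain that pairs with p50 in the canonical pathway. Its HCT15 control libraries held 31.9, 21.4 and 29.2 TPM and those with RNF26 15.4, 16.0 and 15.4 TPM. The controls were widely spread, with replicate 2 lowest, but all 3 lay above the libraries with RNF26. The change was -0.76 (SE 0.147, adjusted p = 0.00219), and the ratio of the means was 0.566. HCT116 libraries held 19.0, 19.3 and 13.8 TPM as controls and 17.8, 18.3 and 16.5 TPM with RNF26, which overlap.

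NFKB2 and RELB encode the pair of the non-canonical pathway, p100, which is processed to p52, and its partner RelB. NFKB2 (ENSG00000077150, chr10:102394110-102402529, plus strand) stood at 55.7, 49.5 and 58.1 TPM in HCT15 controls and 37.8, 47.4 and 36.6 TPM with RNF26. The highest library with RNF26 lay just under the lowest control, and the change was -0.42 (SE 0.110, adjusted p = 0.0118). Median-ratio scaling (-0.20, adjusted p = 0.149), quantile normalization (-0.21, 0.145), removal of ribosomal protein and mitochondrial genes (-0.31, 0.0558) and a separate fit of each line (0.0552) each ended that call. In HCT116 NFKB2 held 25.2 to 31.9 TPM in controls and 26.8 to 28.6 TPM with RNF26. RELB (ENSG00000104856, chr19:45001430-45038198, plus strand) differed between the lines, at 2.80, 3.37 and 2.02 TPM in HCT116 controls and 16.2, 16.6 and 12.8 TPM in HCT15 controls, a ratio of 5.57. It is thus the subunit gene with the widest ratio between the lines. With RNF26 it stood at 12.6, 13.7 and 15.2 TPM in HCT15, overlapping the controls, at -0.12 (SE 0.166, adjusted p = 0.624). That sign turned to 0.086, 0.15 and 0.30 with median-ratio scaling, quantile normalization and the GC correction.

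The inhibitors are themselves NF-kB targets, and both were lower with RNF26 in HCT15. NFKBIA (ENSG00000100906, chr14:35401511-35404749, minus strand) encodes IkB alpha, which binds the dimer and masks its nuclear localization signal. It stood at 180.3, 153 and 180.7 TPM in HCT15 controls and at 124.5, 120.0 and 119.9 TPM with RNF26. The 3 libraries with RNF26 lay close together and below all controls, and the change was -0.49 (SE 0.0991, adjusted p = 0.00291), a ratio of 0.708. In HCT116 NFKBIA held 15.4, 14.0 and 14.7 TPM in controls and 13.4, 16.7 and 12.5 TPM with RNF26, so that the HCT15 controls were 11.7 times as high. TNFAIP3 (ENSG00000118503, chr6:137867188-137883312, plus strand) encodes A20, a ubiquitin-editing enzyme that ends the signal upstream of the kinase. It was the scarcest of the 10 in HCT15, at 3.93, 3.96 and 4.88 TPM in controls and 3.31, 3.09 and 3.18 TPM with RNF26. The groups did not overlap, and the change was -0.32 (SE 0.107, adjusted p = 0.0361). That call ended without HCT15 control replicate 3 (-0.24, adjusted p = 0.130), without HCT15 RNF26 replicate 1 (0.0673), 2 (0.0824) or 3 (0.0827), and under 8 other settings, among them median-ratio scaling (-0.15, 0.352). HCT116 libraries held 0.62 to 0.84 TPM of TNFAIP3 in controls and 0.66 to 0.86 TPM with RNF26.

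Of the target genes, ICAM1 fell and BIRC3 did not pass the test. ICAM1 (ENSG00000090339, chr19:10270835-10286615, plus strand) encodes the adhesion molecule to which leukocyte integrins bind. Its HCT15 controls held 64.4, 63.4 and 63.7 TPM and the libraries with RNF26 31.3, 34.9 and 33.2 TPM. The spread within each group was small beside the gap, and the change of -0.93 (SE 0.0803, adjusted p = 3.83e-05) was the largest fall among the 10, a ratio of 0.519. HCT116 held 2.83, 2.69 and 3.03 TPM in controls and 2.40, 2.29 and 1.87 TPM with RNF26. These groups did not overlap either, at -0.28 (SE 0.0803), but the unadjusted p of 0.00554 became an adjusted p of 1.0. BIRC3 (ENSG00000023445, chr11:102317450-102339403, plus strand) encodes cIAP2, a ubiquitin ligase that restrains cell death at the tumour necrosis factor receptor. It stood at 35.1, 30.4 and 35.6 TPM in HCT15 controls and 31.1, 31.8 and 28.9 TPM with RNF26, which overlap. The value of -0.13 (adjusted p = 0.405) turned to 0.082 with median-ratio scaling and 0.11 with quantile normalization. In HCT116 BIRC3 held 1.75, 1.56 and 1.40 TPM in controls and 1.82, 2.71 and 1.92 TPM with RNF26, at 0.28 (unadjusted p = 0.0285, adjusted p = 1.0). Its HCT15 controls were 21.4 times as high as those of HCT116, close to the 22.4 of ICAM1.

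The 2 chemokines did not move together. CXCL8 (ENSG00000169429, chr4:73740506-73743716, plus strand) encodes interleukin-8, a neutrophil attractant, and CXCL1 (ENSG00000163739, chr4:73869393-73871242, plus strand) encodes a ligand that shares its receptor CXCR2. CXCL8 stood at 30.5, 28.6 and 31.8 TPM in HCT15 controls and at 38.9, 41.8 and 37.7 TPM with RNF26. All 3 libraries with RNF26 lay above all controls, at 0.37 (SE 0.0986, adjusted p = 0.0128), a ratio of 1.30. Besides the GC correction, a pseudocount of 0.1 ended that call (adjusted p = 0.187), while median-ratio scaling raised the value to 0.58 (0.00119). CXCL1 held 28.7, 21.0 and 39.9 TPM in HCT15 controls and 25.2, 29.2 and 30.3 TPM with RNF26. The controls alone spanned the whole range of the libraries with RNF26, and the value of -0.036 (SE 0.249, adjusted p = 0.945) turned to 0.18 with median-ratio scaling, 0.22 with quantile normalization, 0.081 without ribosomal protein and mitochondrial genes and 0.16 with the GC correction. In HCT116 both were scarce. CXCL1 held 0.33, 0.46 and 0.89 TPM in HCT116 controls and 0.12, 0.86 and 0.93 TPM with RNF26. CXCL8 held 0.41, 0.42 and 0.65 TPM in HCT116 controls and 0.20, 0.44 and 0.32 TPM with RNF26. No group difference was detectable for either at these levels. CXCL1 has close paralogs in CXCL2 and CXCL3, and where the authors' counting split reads among them its value is uncertain.

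Set beside the other chemokine genes of the pathway lists, chosen for this comparison after their values were seen, CXCL8 was 1 of 3 that rose in HCT15. Of 9 chemokine genes tested, 3 were called higher, 1 lower and 5 neither way, beside 5.39% higher and 31.2% lower over all genes tested. CCL20, which attracts cells bearing CCR6, rose from 5.99 ± 0.207 to 11.7 ± 1.86 TPM (SD, n = 3), at 0.85 (adjusted p = 0.00141). CXCL2 rose from 14.5 ± 0.505 to 20.4 ± 2.31 TPM, at 0.46 (0.0436). That call ended without any of 7 libraries in turn, namely each HCT15 control (adjusted p = 0.0778, 0.0836 and 0.0991), HCT15 RNF26 replicates 2 and 3 (0.0922 and 0.139), HCT116 control replicate 2 (0.0570) and HCT116 RNF26 replicate 1 (0.0555). The monocyte attractant CCL2 fell from 3.82 ± 0.702 to 2.20 ± 0.392 TPM, at -0.59 (0.00553). The calls of CCL20, CXCL2 and CCL2 also ended with a pseudocount of 0.1 (adjusted p = 0.188, 0.414 and 0.0797). That of CXCL2 ended too with no filter (0.104) and with removal of ribosomal protein and mitochondrial genes (0.0552). CXCL3 (27.7 to 21.7 TPM, adjusted p = 0.0766), CXCL5 (37.8 to 45.7 TPM, 0.0510) and CXCL16 (16.4 to 12.1 TPM, 0.0514) missed the threshold. Among the paralogs CXCL1, CXCL2 and CXCL3, then, 1 was called higher, and the values of all 3 are uncertain for the reason given. Of 6 chemokine receptor genes, CXCR2 among them, none passed the filter on low values.

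**Figure D3:**
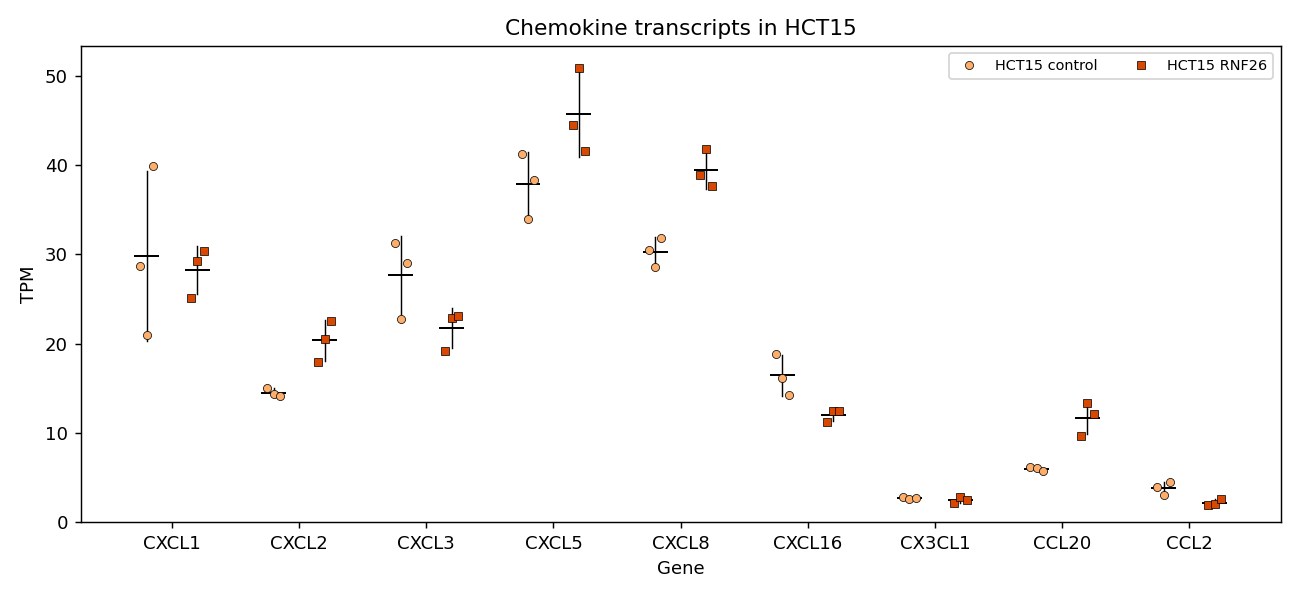
TPM of 9 chemokine genes in HCT15 control (circles) and HCT15 RNF26 (squares) libraries, with 1 point per library, the group mean as a bar and the SD as a line (n = 3). The points of CXCL8, CXCL2, CCL20 and CXCL5 with RNF26 lie above all their controls and those of CCL2 and CXCL16 below, of which CXCL5 and CXCL16 missed the threshold, while CXCL1 controls span 21.0 to 39.9 TPM and cover the other group.

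The difference of the RNF26 effect between the lines, HCT15 minus HCT116, was tested directly as an interaction. It was called for 5 of 10 genes, 4 lower and 1 higher, against 20.5% of all genes tested, 18.7% lower and 1.80% higher. NFKB1 gave -0.84 (SE 0.123, adjusted p = 0.00210), ICAM1 -0.65 (SE 0.114, 0.00414), RELA -0.79 (SE 0.208, 0.0227), NFKBIA -0.44 (SE 0.140, 0.0486) and CXCL8 0.55 (SE 0.139, 0.0197). Those of NFKB1 and ICAM1 were called under each alternative run. RELA lost its call with median-ratio scaling (adjusted p = 0.0873), no filter (0.0603), quantile normalization (0.103), the GC correction (0.172) and when HCT116 RNF26 replicate 1 (0.0519) or 2 (0.0572), HCT15 control replicate 1 (0.0531) or HCT15 RNF26 replicate 1 was left out. NFKBIA kept its call without HCT15 control replicate 2 or HCT116 RNF26 replicate 3 and lost it without any of the other 10 libraries in turn, with adjusted p up to 0.105, and under 8 other settings, among them median-ratio scaling (0.320). CXCL8 lost it with a pseudocount of 0.1 (0.0559), and its HCT116 libraries held only 0.20 to 0.65 TPM. For the 5 other genes the difference was not called, though that of NFKB2 was without HCT15 RNF26 replicate 2 (adjusted p = 0.0266). RNF26 rose 17.6-fold in HCT116 and 2.01-fold in HCT15, so the size of the overexpression and the line cannot be told apart in this comparison. The HCT15 controls enter both the RNF26 comparison in HCT15 and the comparison of the control lines, and the values of the 10 genes in these are therefore given side by side only.

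The other genes of the pathway were counted by list. In HCT116 limma called none in any list, and 2 of 23 genes of the IkB kinase and its activators had an unadjusted p under 0.05, against 0 in each other pathway list. Over all 15584 genes tested in HCT116, 657 had such a p. Over all genes tested in HCT15, 31.2% were called lower and 5.39% higher. In the list of other subunits and inhibitors, 2 of 6 tested were lower and none higher. NFKBIE, which encodes IkB epsilon, fell from 18.0 ± 1.69 to 10.8 ± 1.25 TPM (-0.70, adjusted p = 0.00151), and BCL3, a nuclear IkB family member that binds p50 and p52 dimers, from 9.31 ± 1.24 to 4.26 ± 1.27 TPM (-0.99, 0.00345). The GC correction ended the call of NFKBIE (0.0557), not that of BCL3. NFKBID gave -0.53 (0.0920). Of 23 genes of the IkB kinase and its activators 10 were lower and none higher, led by TAB1 (-0.85, 0.000120), which binds the kinase TAK1, by the kinase IKBKE (-0.64, 0.00354) and by the TAK1 adaptor TAB2 (-0.35, 0.00452). The GC correction ended the call of IKBKE (-0.22, 0.234), and median-ratio scaling (-0.13, 0.211) and quantile normalization (-0.11, 0.317) that of TAB2, as did removal of ribosomal protein and mitochondrial genes (0.0555). The count was 6 with median-ratio scaling, 5 of them lower, 6 with quantile normalization, 3 of them lower, and 3 with the GC correction. Of 17 ubiquitin regulators 8 were lower and none higher, among them TNIP2 (-0.71, 0.000131) and TNIP1 (-0.45, 0.00376), which encode partners of A20, and SHARPIN (-0.58, 0.000490), a subunit of the linear ubiquitin ligase. The GC correction ended the calls of TNIP1 (-0.075, 0.496) and SHARPIN (-0.21, 0.0743), and median-ratio scaling that of TNIP1 (0.0545). The count was 4 with the GC correction, 1 of them higher, and 5 both with a separate fit of each line and without HCT15 RNF26 replicate 1. Median-ratio scaling and quantile normalization also ended calls of ubiquitin regulators not named here. Their adjusted p was 0.183 to 0.371 with the former and 0.25 to 0.640 with the latter.

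At the receptors, 7 of 15 tested were lower in HCT15 with RNF26 and 1 was higher, beside 31.2% and 5.39% of all genes tested. TNFRSF1A, the main receptor for tumour necrosis factor, fell from 51.6 ± 1.59 to 25.0 ± 1.73 TPM (-1.02, adjusted p = 2.39e-05). LTBR, the lymphotoxin beta receptor that signals to NFKB2, fell from 75.7 ± 17.5 to 41.1 ± 4.03 TPM (-0.84, 0.00107), and the ectodysplasin receptor EDAR from 6.26 ± 0.467 to 1.99 ± 0.0693 TPM (-1.28, 2.71e-05). TLR2, a receptor for bacterial lipopeptides, rose from 4.36 ± 0.154 to 7.38 ± 1.36 TPM (0.63, 0.00164). These 4 calls held under each alternative that gave a value. Another receptor called lower, at -0.42, turned to 0.013 with the GC correction (adjusted p = 0.927) and lost its call with median-ratio scaling (0.208). Of 4 ligands tested 2 were lower, TNFSF12 (-0.51, 0.0169) and LTB (-0.52, 0.0200), and IL18 was higher (0.21, 0.0204). The GC correction ended the calls of LTB (-0.095, 0.710) and TNFSF12 (-0.11, 0.577). That of IL18 ended with a separate fit of each line (0.0516) and without HCT15 control replicate 3 (0.0541). It also ended without HCT15 RNF26 replicate 2 (0.0636) or 3 (0.0520). The count of 3 ligands fell to 1 with median-ratio scaling, quantile normalization, or removal of ribosomal protein and mitochondrial genes, to 1 without HCT15 RNF26 replicate 1 and to 0 without replicate 2. TNF, the ligand of TNFRSF1A, stood at 1.07 ± 0.105 TPM in HCT15 controls and 1.15 ± 0.0557 TPM with RNF26, and was listed at 0 in every HCT116 library.

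Of the target genes outside the 10, 11 of 29 were lower in HCT15 and 4 higher, beside 31.2% and 5.39% of all genes tested, so the share that fell is near that of all genes. PLAU, the urokinase gene, fell from 17.2 ± 0.458 to 9.31 ± 0.0231 TPM (-0.82, adjusted p = 3.83e-05). BCL2L1, which encodes the survival protein BCL-XL, fell from 108.9 ± 7.61 to 67.6 ± 3.01 TPM (-0.68, 0.000147), and MYC fell by 1.001 on the log2 scale (4.33e-05). The 4 that rose, named after their values were seen, were CXCL2, CCL20, SAA1 (1.85, 0.000174) and LCN2 (1.43, 0.000225), the last 2 encoding secreted proteins of the acute phase. The medians of the lists lay between -0.32 for the ubiquitin regulators and -0.23 for the ligands, against -0.37 for the 10 genes and -0.17 for all genes.

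**Figure D4:**
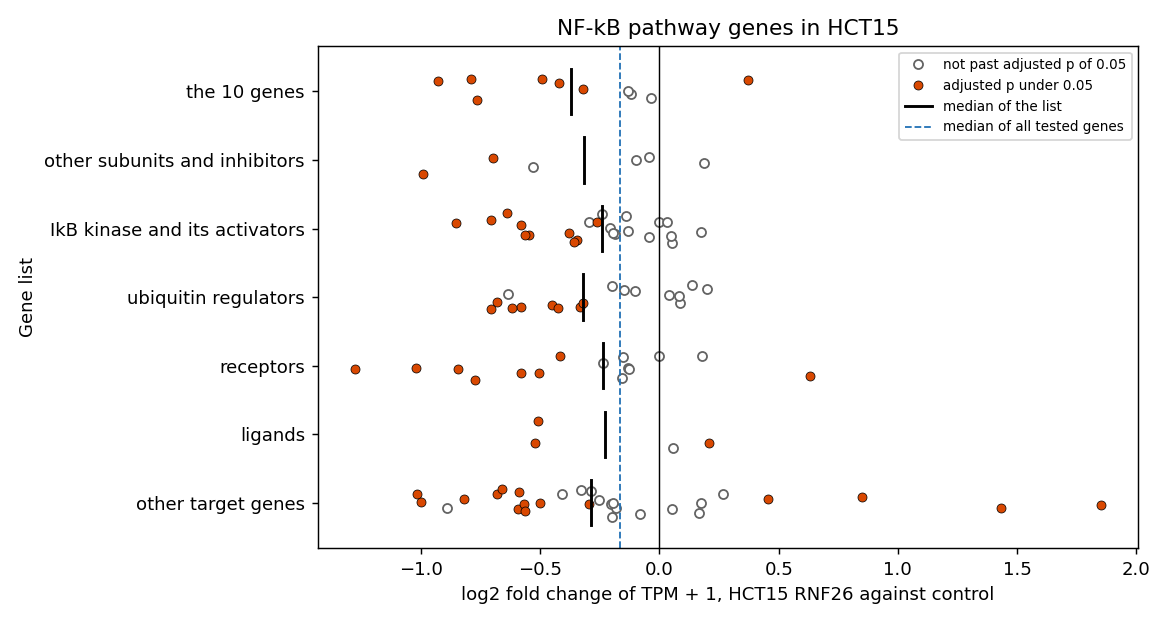
Log2 fold change of TPM + 1 for RNF26 against control in HCT15, with 1 point per tested gene, filled where the adjusted p was under 0.05, a bar at the median of each list and a dashed line at the median of all tested genes (-0.17). The filled points lie mostly left of 0 in each list, and those right of 0 are CXCL8 in the top list, TLR2 among the receptors, IL18 among the ligands and 4 other target genes.

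Between the control lines, the lists other than the ligands held calls in both directions. Of the 29 other target genes 23 were higher in HCT15 and 1 lower, beside 43.6% and 26.0% of all genes tested. IL32, which encodes an inflammatory cytokine, stood at 1.52 ± 0.180 TPM in HCT116 and 255 ± 29.4 TPM in HCT15, and CXCL5 was listed at 0 in HCT116 and stood at 37.8 ± 3.63 TPM in HCT15. Of the 23 kinase and activator genes 11 were higher and 5 lower. CHUK, which encodes IKK alpha, was lower in HCT15 (31.3 ± 0.683 against 12.1 ± 1.87 TPM, -1.31, adjusted p = 7.83e-07), while TRAF5 (1.78, 7.74e-08) and IKBKE (1.17, 1.19e-05) were higher. Of the 6 other subunits and inhibitors 5 were higher, among them NFKBIZ (1.91, 2.11e-07) and NFKBIE (1.12, 9.98e-06), and NFKBIB was lower (-0.86, 1.53e-06). Of the 17 ubiquitin regulators 9 were higher and 2 lower, led by RBCK1 (2.28, 3.08e-10), a further subunit of the linear ubiquitin ligase, TNIP1 (2.60, 7.89e-10) and TAX1BP1 (1.36, 2.91e-08), an adaptor of A20. Of the 15 receptors 10 were higher and 3 lower. CD40 stood at 19.8 ± 0.654 TPM in HCT116 and was listed at 0 in HCT15, and TLR2 was listed at 0 in HCT116. Of 4 ligands 3 were higher, led by LTB at 0.0733 ± 0.102 TPM in HCT116 and 130.6 ± 17.6 TPM in HCT15. A lower level of a transcript in such cultures cannot be told apart from fewer cells that carry it.

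The pattern of each of the 10 genes over the 12 libraries was also set beside that of other genes, by the root mean square difference of log2(TPM + 1) after each gene's mean was subtracted. Within the set, the closest pairs were NFKB1 and NFKB2 (0.192), NFKB1 and RELA (0.232), and NFKBIA and BIRC3 (0.239). Among all tested genes with a mean of 5 TPM or more, the nearest gene was DIDO1 for NFKB1 (0.0732), MTA3 for NFKB2 (0.0680) and ACTN1 for RELA (0.103). It was KNDC1 for NFKBIA (0.123), VEZT for TNFAIP3 (0.0835), GSPT2 for BIRC3 (0.153) and SLC43A1 for ICAM1 (0.171). It was GALC for CXCL1 (0.272) and AGR2 for CXCL8 (0.134). CXCL1 thus had the least close neighbour of the genes named here. All these distances share the same 12 libraries and are governed mostly by the difference between the lines, so they carry no test.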

How the data were processed

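Poly(A) RNA of 12 libraries was sequenced from a stranded library kit, per the labels' protocols. The authors deposited TPM with 2 decimals. The tools RSEM, StringTie, HISAT2 and fastp and build GRCh38 were used, per the submitters' processing notes; their versions and roles, the annotation release and the use of strand are not stated there. Groups and replicate numbers came from the titles. Genes reaching 1 TPM in 3 or more of 12 libraries were fitted together with limma 3.58.1 (R 4.3.3) on log2(TPM + 1) (4 group means, 8 residual degrees of freedom, eBayes with trend, two-sided, Benjamini-Hochberg over 15584 genes, called under 0.05). This scale understates changes of low genes. The fit was tested on simulated data. No pair of libraries was alike (at least 24770 genes differed).

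Named were the 10 genes, RNF26, up to 3 genes of each list with the smallest p in HCT15 and up to 3 between control lines (mean of 1 TPM or more in the higher group), and genes nearest in pattern; the rule also picks genes not reported here. VIL1 and CDX2 fall under the same rule in the marker list. The genes and lists were chosen with earlier results of these data known. Gene positions, GC content and length (medians over transcripts) are from GENCODE, promoter windows from RefSeq. Alternatives were a pseudocount of 0.1 or 5, no filter or a filter of 5 TPM, median-ratio scaling over 7524 genes, quantile normalization, removal of ribosomal protein and mitochondrial genes, separate fits of the lines, eBayes without trend or robust, the replicate number as a block, a spline correction for GC content and length (95.3% of tested genes), and leaving out each library.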

Additional observations from a re-analysis of the deposited data

Results flagged for a closer look

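The RNF26 effect differed between HCT15 and HCT116 by the interaction test for 5 of the 10 genes. On the log2 scale, HCT15 minus HCT116, the difference was -0.84 for NFKB1, -0.79 for RELA, -0.44 for NFKBIA, -0.65 for ICAM1 and 0.55 for CXCL8. Within HCT15 the first 4 fell and CXCL8 rose, and in HCT116 none of the 5 was called. CXCL8 held at most 0.65 TPM in the HCT116 libraries. RNF26 itself rose 17.6-fold in HCT116 and 2.01-fold in HCT15.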

How the results depend on the processing

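TPM keeps no depth, so precision at low values, such as CXCL1 and CXCL8 in HCT116, is unknown. All 10 genes were called higher in HCT15 than in HCT116 controls under each alternative that gave a value; TNFAIP3 had none with the filter of 5 TPM. The count of HCT15 calls, 7, was 2 with the GC correction and 5 to 7 otherwise, and none was called in HCT116 under any. The count of differences between lines, 5, was 3 with a pseudocount of 0.1, no filter, median-ratio scaling, quantile normalization, the replicate block and the GC correction, and ranged from 3 to 5 without each library in turn. Without HCT15 RNF26 replicate 2 the genes counted included NFKB2 and not NFKBIA. The cause of these losses was not tested. In limma RNF26 passed the threshold that the exact test of 3 against 3 cannot reach, at 4.05 in HCT116 and 0.98 in HCT15.

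Replicate numbers did not pair the libraries: deviations of same-numbered libraries correlated at -0.0313, -0.0424 and -0.0254 in HCT116 and 0.0090, 0.0135 and 0.146 in HCT15. With the number as a replicate block, 6 genes were called in HCT15, without TNFAIP3 (adjusted p = 0.0752), 3 differed between lines, without NFKBIA (0.0892) and CXCL8 (0.0543), and 10 differed between control lines. Of the ligands 1 was called with it, without LTB (0.0592) and IL18 (0.0563). Not every library correlated best with its own number.

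Values that changed sign were uncalled. In HCT15 they were RELB (0.086, 0.15 and 0.30 with median-ratio scaling, quantile normalization and the GC correction), BIRC3 (0.082 and 0.11 with the first 2) and CXCL1 (0.18, 0.22, 0.081 without mitochondrial and ribosomal protein genes, and 0.16 with the GC correction; -0.26 to 0.19 without each library in turn). In HCT116 CXCL1 gave -0.044 with a pseudocount of 0.1. Without each library in turn, the HCT116 values were -0.11 to 0.058 for NFKB2, -0.12 to 0.10 for RELA, -0.28 to 0.0041 for RELB, -0.17 to 0.025 for NFKBIA, -0.066 to 0.030 for TNFAIP3 and -0.10 to 0.30 for CXCL1. The difference between lines turned for NFKB2 with the GC correction (0.0021), for RELB with a pseudocount of 5 (-0.032; -0.12 to 0.16 without each library) and for CXCL1 (0.0085 with a pseudocount of 0.1, 0.13, 0.19, 0.036 and 0.11 with the other 4 settings named for it; -0.33 to 0.15 without each library).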
